A study of Mus musculus with 2 samples.

Results

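Among the deeply sequenced muscle stem cells (MuSCs) of the 90% aliquot, 62 were interferon cells, in which a set of 4 interferon genes scored highest of 6 gene sets. They were chosen among 606 barcodes with at least 20000 UMIs (unique molecular identifiers, each standing for 1 captured transcript), out of 3001 barcodes in all. In each of these deep barcodes, UMI counts scaled to a common total (CPM) were turned into log2(CPM + 1) and z-scored, and the mean z-score was taken over 6 sets of 4 genes. The sets marked S phase (Mcm5, Mcm6, Pcna, Tyms), mitosis (Ccnb1, Cdc20, Cdk1, Birc5), differentiation (Myog, Mymk, Cdkn1c, Ak1), interferon response (Ifit1, Isg15, Iigp1, Ifi27l2a), stress (Nupr1, Neat1, Hmox1, Ndrg1) and heat shock with immediate-early genes (Hspa1a, Fosb, Smad7, Atf3). A barcode was an interferon cell when its interferon set had the highest mean. The 3 deep barcodes with UMIs of Ptprc, which encodes the leukocyte antigen CD45, were left out, and in none of the 3 was the interferon set highest. This left 603 deep barcodes, of which the 62 interferon cells made up 10.3% (exact binomial 95% interval 7.97 to 13.0%, counting error only) and the other 541 are the comparison used throughout.

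The mice carried Pax7creERT2 and R26 YFP on a C57BL6 background, were 3 months old and received 100 uL of tamoxifen at 20 mg/ml daily. Cre expressed from Pax7, the transcription factor that defines MuSCs, thus switched on YFP in Pax7-expressing cells and their progeny, and YFP-positive cells were sorted. Activated cells were taken from lower hindlimb muscle 72 hours after an injection of 40 uL of 1.2% barium chloride, and quiescent cells from uninjured muscle. Both sorts went into 1 Chromium capture, whose emulsion was then divided into a 10% and a 90% aliquot. The labels do not say which barcode came from which sort, so nothing below compares injured with uninjured muscle, and with 1 capture there are no replicates and no p-values.

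Interferons are secreted proteins that bind receptors on the cell surface, activate JAK kinases and send a complex of STAT proteins and IRF9 to the nucleus. There it binds interferon-stimulated response elements and switches on a large set of interferon-stimulated genes (ISGs). Their products block viral replication, conjugate the ubiquitin-like protein ISG15 to other proteins, and raise the display of peptides on MHC class I. In injured muscle, MuSCs leave quiescence, divide and differentiate while inflammatory cells that can release interferons are present.

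The deposited counts of the 2 aliquots did not describe separate cells, although the paper equates dividing the emulsion with sampling cells. Of the barcodes in the 90% aliquot, 634 were also in the 10% aliquot, and 76 of the 79 deep barcodes of the 10% aliquot were deep in both. Each of these 76 profiles was closest to the profile with its own barcode, with a median correlation of 0.937 across 20501 genes. The median with all deep barcodes was 0.675. Values from the 10% aliquot are therefore treated as further counts of cells already in the 90% counts and not as an independent sample. How the same barcodes came into both was not tested, so close counts are not a repeat measurement. Among the 62 interferon cells, 10 were deep in both aliquots. The share of interferon cells was 13.2% (6.49 to 22.9%) in the 76 shared barcodes and 9.87% (7.46 to 12.7%) in the other 527, and these intervals overlap.

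One interferon cell held fibroblast genes beside the interferon genes. This barcode of 72176 UMIs held 147 UMIs of Col1a1 (fibrillar collagen), 3 of Pdgfra (a fibroblast receptor), 1 of Myod1 and none of Des, the gene for the muscle intermediate filament desmin. It also held 41 Isg15 and 6 Ifit1 UMIs. By long reads the same barcode had 6 Des and 6 Myod1 UMIs, where the other 9 interferon cells deep in both aliquots had 8 to 139 of Des and 1 to 23 of Myod1. It is called the fibroblast-gene barcode here, and values that move with it are given with and without it. The other 61 interferon cells each had at least 2 Des UMIs and shared only 14 Col1a1 UMIs.

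Genes outside the rule gave a mixed picture for the label of activated stem cell, which was not tested. Myod1 was lower than in the other deep barcodes and Pax7 was higher. Des had a median of 20.5 UMIs in interferon cells and 16 in the others. Myod1, the myogenic factor of activated MuSCs, had a UMI in 47 of the 62 interferon cells with a median of 3, and in 486 of the 541 others with a median of 7. Pooled over cells, Myod1 stood at 140 CPM (exact Poisson 95% interval 127 to 155) against 220 CPM. Pax7 was at 14.2 against 7.10 CPM, Myf5, a further myogenic factor, at 51.5 against 34.3 CPM, and Cdh15, which encodes M-cadherin, at 101 against 52.5 CPM. Only 2 interferon cells lacked all of Pax7, Myf5, Myod1 and Cdh15, as did 7 of the others. A UMI of a myogenic gene is weak evidence by itself, since free RNA may hold these transcripts: the muscle stem cell list stood at 1061 CPM in barcodes under 200 UMIs, against 1228 and 1051 CPM in interferon cells and the others. No Myod1 UMI was counted in the short reads of 15 interferon cells. Of these, 6 were also read with long reads, and all 6 had Myod1 there, with 1 to 6 UMIs. A short-read count of 0 thus does not show that Myod1 was off. Long-read counts this low do not show that it was on either, since the fibroblast-gene barcode also had 6.

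The interferon cells were somewhat shallower than the others, with a median of 41355 UMIs (lowest 20025, highest 128997) against 47711 and a lower quartile of 28756 against 39313. Their median number of detected genes was 5101 against 5377, and mitochondrial transcripts took 1.13% against 1.18% of UMIs. In sum, 2816532 UMIs of interferon cells were set against 26909939 of the other deep barcodes.

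Promoter sequences of genes higher in the interferon cells are shown first, since ISGs share a DNA element. The core of the interferon-stimulated response element, GAAA followed by any 2 bases and a further GAAA, was searched on both strands (on the other strand it reads TTTC, any 2 bases, TTTC) in RefSeq promoters of GRCm38.p6, each running from 250 bases before to 50 bases after a start. The windows below are written 5′ to 3′ on the gene's own strand, with the matches in capitals, and overlapping matches run together. Isg15 and Ifit1 were genes of the rule, Bst2 had the pattern most like the rule's score across cells, B2m was the most abundant MHC class I gene called, Irgm1 and Gbp2 are GTPases, and Apol9a lay outside every list.
Isg15: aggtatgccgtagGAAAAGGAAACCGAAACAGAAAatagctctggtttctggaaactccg
Ifit1: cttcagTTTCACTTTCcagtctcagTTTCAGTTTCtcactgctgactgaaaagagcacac
Bst2: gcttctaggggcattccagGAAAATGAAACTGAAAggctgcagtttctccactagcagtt
B2m: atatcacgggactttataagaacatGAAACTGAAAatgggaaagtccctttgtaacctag
Irgm1: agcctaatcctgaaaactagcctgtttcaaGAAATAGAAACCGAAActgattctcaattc
Gbp2: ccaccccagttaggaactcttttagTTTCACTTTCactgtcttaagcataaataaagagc
Apol9a: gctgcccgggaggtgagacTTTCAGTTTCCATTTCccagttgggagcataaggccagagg

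These windows lie at chr4:156200850-156200909 (minus strand) for Isg15, chr19:34640779-34640838 (plus) for Ifit1, chr8:71537562-71537621 (minus) for Bst2 and chr2:122147523-122147582 (plus) for B2m. Irgm1 is at chr11:48871421-48871480 (minus), Gbp2 at chr3:142620579-142620638 (plus) and Apol9a at chr15:77411099-77411158 (minus). Each lies before a RefSeq start of its gene. By the Gencode gene bounds, the windows of Isg15, Ifit1, Bst2 and B2m lie outside the gene, those of Gbp2 and Apol9a span its start, and that of Irgm1 lies inside it. Isg15 held 3 overlapping matches that ended 56 bases before the start, Ifit1 held 2 separate matches ending 75 bases before it, and Bst2 held 2 ending 114 bases before it. In B2m the single match ended 129 bases before the start, and in Irgm1 the nearest of 2 ended 14 bases before it.

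The element was found in 14 of the 26 ISGs that were at least 2-fold higher in interferon cells and had a window (53.8%), against 3.44% of all 32851 windows and 3.43% of the 7864 tested genes with a window. Among 29 other tested ISGs it was found in 7 (24.1%), and among 47 genes outside the lists that were at least 2-fold higher, in 8 (17.0%). For Irf7, Oasl2, Xaf1 and Psmb8 the letters of the response element core were not in the window. Ifi27l2a, Iigp1, Rtp4, Usp18, Zbp1, Parp14 and Tor3a had no window in the table. A match is a description of the sequence and was not tested for binding.

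The cells were chosen by the CPM of the genes in the 6 sets, so the values of these 4 interferon genes are a description only. ISG15 is the ubiquitin-like modifier, IFIT1 binds foreign RNA caps, IIGP1 is a GTPase that attacks pathogen vacuoles, and IFI27L2A is a small mitochondrial ISG product. Isg15 (chr4:156199424-156200818, GRCm38 as for all genes here) had 0, 6 and 56 UMIs in the lowest, median and highest interferon cell and was detected in 55 of them. It was also detected in 152 of the 541 other barcodes, with a median of 0 and up to 46 UMIs, so the groups overlap for Isg15. Ifit1 (chr19:34640871-34650009) was detected in 35 interferon cells with up to 36 UMIs and in 8 others with at most 4. Iigp1 was detected in 33 interferon cells with up to 27 UMIs, against 9 others with at most 2. Ifi27l2a (chr12:103442167-103443680) was detected in 34 interferon cells with up to 45 UMIs, against 35 others with at most 6. Pooled, Isg15 reached 254 CPM (235 to 273) against 24.8, Ifi27l2a 113 against 2.08, Ifit1 64.3 against 0.56 and Iigp1 59.3 against 0.45 CPM.

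The rule genes were not all on in each cell. Of the interferon cells, 8 had UMIs of all 4 genes, 23 of 3, 25 of 2 and 6 of only 1. Among the other barcodes, 365 had none of the 4, 149 had 1, 26 had 2 and 1 had 3. The summed CPM of the 4 genes was 490 (464 to 517) in interferon cells and 27.9 in the others, with 15.7 to 37.6 in the 5 other sets of barcodes. It was 180 CPM in the 1814 barcodes with 1000 to 20000 UMIs, which the rule did not classify. In the 150 barcodes under 200 UMIs, which may hold only free RNA, 6 UMIs gave 289 CPM with an interval of 106 to 630, so free RNA of these genes could not be bounded tightly.

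The edge of the class was crowded. The interferon set led the next set by less than 0.1 in 8 cells and by less than 0.5 in 28 of the 62, while 14 other barcodes missed membership by less than 0.1. Just inside the threshold stood cells with mean interferon z-scores of 1.31 and 1.25, ahead by 0.0118 and 0.0236. Just outside stood barcodes at 0.104 and 1.13, with margins of −0.00393 and −0.00877. Mean interferon z-scores of interferon cells had a median of 1.48 and a range of 0.0157 to 4.53, and 5 were below 0.5. The second highest set was the Nupr1 set in 20 interferon cells, differentiation in 14, mitosis in 12, S phase in 10 and heat shock in 6.

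**Figure D1:**
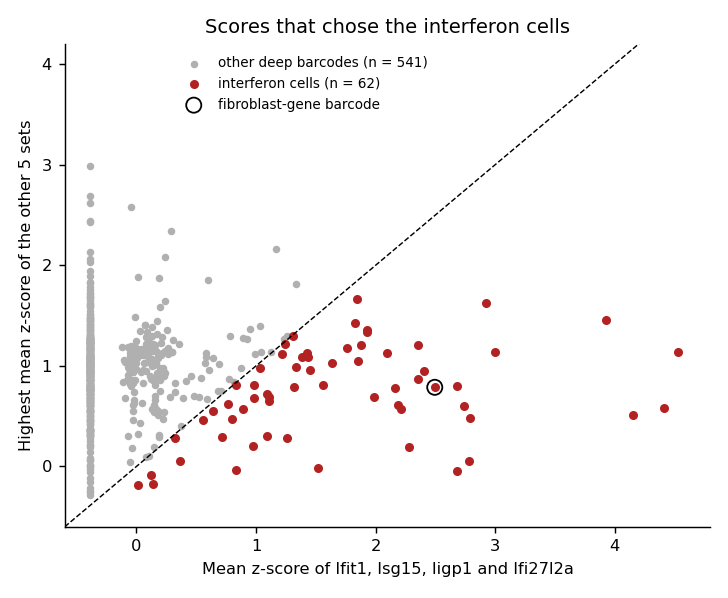
Each point is 1 deep barcode, with the mean z-score of the 4 interferon genes on the x axis and the highest mean z-score among the other 5 sets on the y axis (both without unit). Red points below the dashed line of equal scores are the 62 interferon cells, grey points are the 541 others, and the ring marks the fibroblast-gene barcode, which scored 2.49. The points run across the line without a gap, with 8 interferon cells less than 0.1 below it.

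Beyond the rule, 108 genes in 4 lists of ISG products were examined: antiviral effectors, ISG15 conjugation with PARPs, interferon-inducible GTPases, and MHC class I presentation. A gene was tested for size when it had at least 50 UMIs over the deep barcodes, and the ratio is log2 of (CPM + 10) in interferon cells over (CPM + 10) in the others, which understates the change of low genes. Over all 11632 such genes, 101 (0.868%) were at least 2-fold higher on this scale and 5 (0.043%) at least 2-fold lower, with a median log2 ratio of 0.03. Without the fibroblast-gene barcode 88 (0.757%) were higher, and without the barcodes deep in both aliquots 58. Of the 65 tested ISGs, 30 were at least 2-fold higher (28 without the fibroblast-gene barcode), none was lower, 64 lay above 0, and the median log2 ratio was 0.95 (0.94 without the fibroblast-gene barcode). Their summed level was 5841 CPM (5752 to 5930) in interferon cells and 3031 CPM in the others, where the 5 sets ranged from 2918 to 3592. Since the same cells and the same counts chose the members, these ratios describe the class and support nothing about its existence.

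**Figure D2:**
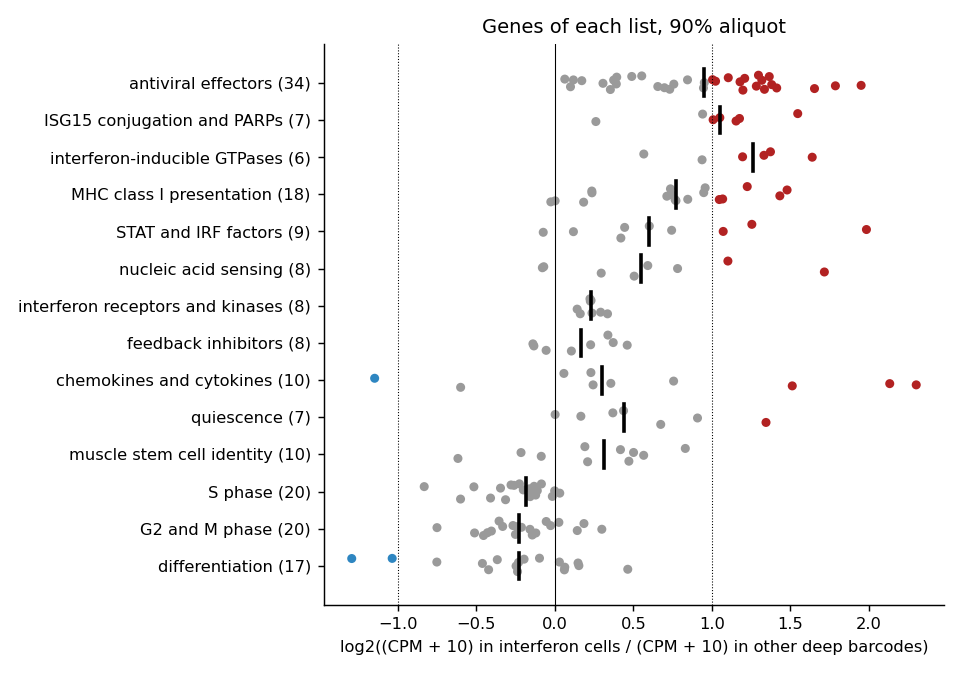
Each point is 1 gene with at least 50 UMIs, placed on the x axis by its log2 ratio of (CPM + 10) between interferon cells and other deep barcodes, in rows by list with the number of genes in parentheses. Black bars are medians, red points lie at or above 1 and blue points at or below −1 (dotted lines). The 4 ISG lists have medians of 0.95, 1.05, 1.26 and 0.77, against −0.18 for S phase and −0.23 for G2 and M phase.

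Among the regulators of the response, Irf7 and Irf9 were at least 2-fold higher. Irf7, which encodes the transcription factor that amplifies type I interferon responses (chr7:141262706-141266481), reached 64.3 CPM (55.2 to 74.3) against 8.77, a log2 ratio of 1.98. It had 0, 1 and 18 UMIs in the lowest, median and highest interferon cell and was detected in 40 of 62, against 77 of 541 others with a median of 0 and up to 22 UMIs. Thinned to 20000 UMIs per barcode, Irf7 was detected in 51.6% of interferon cells and 8.50% of the others. Irf9, which encodes the DNA-binding part of the nuclear complex that interferon assembles, had a log2 ratio of 1.07 and was detected in 32 interferon cells. Its partner Stat2 was at 6.39 against 2.04 CPM with a log2 ratio of 0.44. Irf1, best known as a target of interferon gamma, had a log2 ratio of 0.60, while Irf3, a sensor-activated factor whose RNA is present before stimulation, had −0.07. None of the 9 tested STAT and IRF factors was at least 2-fold lower, where 0.043% of all tested genes were.

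Upstream of these factors the ratios were small in the 90% aliquot. The 8 receptor and kinase genes all lay above 0, with log2 ratios between 0.14 (Ifngr2) and 0.34 (Il10rb), and none was called. In the 11 interferon cells of the 10% aliquot, which include the fibroblast-gene barcode, the list summed to 191 against 74.8 CPM by short reads. There 1 of 4 tested genes was at least 2-fold higher, where 3.57% of all tested genes were. The median was 0.71 (0.76 without that barcode). By long reads the list summed to 488 against 195 CPM, with 3 of 6 higher, where 7.73% of all were. The median was 0.93 (0.90 without that barcode). Ifnar1, which encodes a chain of the type I interferon receptor, was at 13.1 CPM (9.25 to 18.1) against 9.81, and Jak1, the kinase shared by type I and type II receptors, at 29.1 (23.2 to 36.1) against 23.3 CPM. Interferon genes themselves gave almost no UMIs. Of 20 ligand genes listed, 7 had a row in the table, with 10 UMIs in all over the 3001 barcodes and 0 in interferon cells, where 3 UMIs would stand for 1.07 CPM. The 8 barcodes with Ptprc UMIs at any depth had none either. Such counts do not show that the genes are silent.

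Sensors of foreign nucleic acid were split. Zbp1, a sensor of left-handed nucleic acid, was at 37.6 against 4.50 CPM (log2 ratio 1.72) and detected in 36 interferon cells and 60 others. Ifih1, the double-stranded RNA sensor MDA5, was at 16.3 against 2.27 CPM (1.10). Ddx58, the sensor RIG-I, had a log2 ratio of 0.78. The DNA sensor gene Cgas and the kinase gene Tbk1 had −0.07 and −0.08. So 2 of 8 tested sensing genes were at least 2-fold higher and none was lower, against 0.868% and 0.043% of all tested genes.

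Antiviral effectors made the largest list, with 16 of 34 tested genes at least 2-fold higher, none lower, and a median log2 ratio of 0.95 that became 0.80, with 15 genes higher, without the fibroblast-gene barcode. Their summed level was 3497 against 1775 CPM. Oasl2, an oligoadenylate synthetase-like gene, led the list at 51.5 CPM (43.4 to 60.6) against 5.91, with a log2 ratio of 1.95 and detection in 46 interferon cells and 92 others. Rtp4, an interferon-induced chaperone of receptors, was at 61.4 against 10.7 CPM (1.79) and also detected in 46 interferon cells. Ifit3, an RNA-binding partner of IFIT1, had a log2 ratio of 1.65 from 69 UMIs in 20 cells, and its reads may be shared with the near-identical Ifit3b. Oas1g and Oas1a, which make the activator of RNase L and may exchange reads with each other, had 1.41 and 1.38.

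Bst2, whose product tetherin holds budding virions at the cell surface, was detected in every interferon cell. It had 1, 18.5 and 59 UMIs in the lowest, median and highest, against 0, 5 and 87 in the others. In 58 of the 62 interferon cells its CPM was above the others' median, yet 66 of the others were above the interferon cells' median, so the groups overlap. Pooled, Bst2 was at 446 CPM (422 to 472) against 177, a log2 ratio of 1.28. Ifitm3, which blocks virus entry by fusion, was the most abundant ISG named, with 6, 80.5 and 207 UMIs against 1, 46 and 255. Its level of 1885 against 1110 CPM gave a log2 ratio of 0.76, below the 2-fold line. Other well-known ISGs were sparse: Mx2 was detected in 7, Mx1 in 4 and Ifit2 in 4 interferon cells.

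The ISG15 conjugation and PARP list had 5 of 7 tested genes at least 2-fold higher (4 without the fibroblast-gene barcode) and a median log2 ratio of 1.05. Usp18, which removes ISG15 and dampens the receptor, was at 30.2 against 3.75 CPM (1.55). Ube2l6, the ISG15-conjugating enzyme, had 1.15, and the ADP-ribosyltransferases Parp14 and Parp12 had 1.18 and 1.01. None of the 8 tested genes in a separate list of feedback inhibitors was called, where 0.868% of all tested genes were higher and 0.043% lower. Usp18 was not in that list. Its median was 0.17, and Socs1, the classical inhibitor of JAK kinases, stood at 18.8 (14.1 to 24.6) against 14.6 CPM. By long reads in the 10% aliquot, 1 of 7 feedback genes was higher and 2 lower, against 7.73% and 6.75% of all tested genes.

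Interferon-inducible GTPases, which disrupt pathogen vacuoles, had 4 of 6 tested genes higher, none lower, and the highest median of the 4 ISG lists at 1.26. Gbp7 (1.64), Gbp3 (1.37) and Gbp2 (1.33) lie close together on chromosome 3 and belong to a family of similar genes, so reads may be shared among them. Irgm1 on chromosome 11 had 1.20. Each was found in a minority of interferon cells, from 19 for Gbp2 to 28 for Gbp3.

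MHC class I presentation had 5 of 18 tested genes at least 2-fold higher, none lower, a median of 0.77 and a sum of 2028 against 1205 CPM. The immunoproteasome subunit genes Psmb8 and Psmb9 had log2 ratios of 1.48 and 1.43, with Psmb8 at 76.0 (66.1 to 86.9) against 20.9 CPM. B2m, the common light chain, was detected in all 62 interferon cells with 1, 28 and 104 UMIs as the lowest, median and highest, and stood at 720 CPM (689 to 752) against 338 (1.07). Tap1, the peptide transporter gene, had 1.05. The heavy chain genes H2-K1 and H2-D1, which resemble each other and other H2 genes, had 0.96 and 0.75. Calr and Canx, general chaperones of the same pathway, had 0.00 and −0.03. The only tested MHC class II gene was not called.

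**Figure D3:**
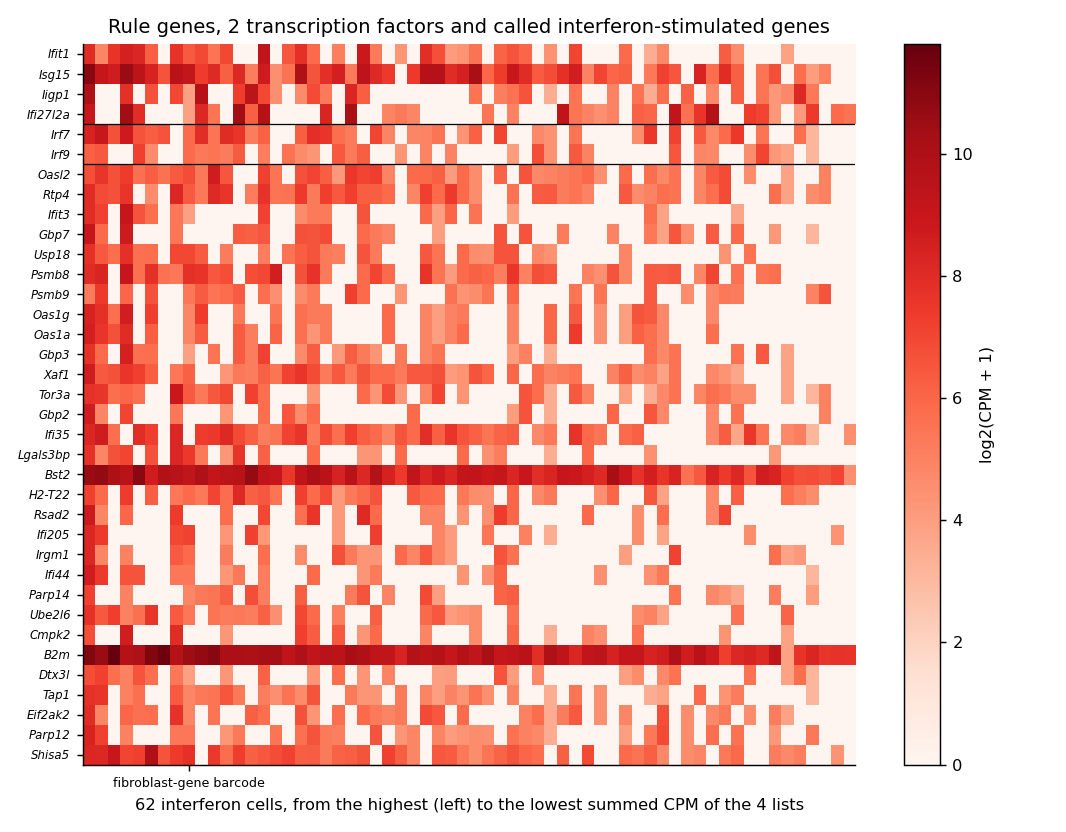
Rows are the 4 genes of the rule, the factors Irf7 and Irf9, and the 30 ISGs at least 2-fold higher, and columns are the 62 interferon cells ordered by their summed CPM of the 4 ISG lists. Colour gives log2(CPM + 1), with the palest shade for 0. Bst2 and B2m fill their rows, whereas Gbp2, found in 19 cells, and Ifit3, found in 20, are scattered.

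Cells differed widely within the class. Of the 30 ISGs called, an interferon cell had UMIs of 3 to 30 with a median of 15, and another deep barcode of 1 to 25 with a median of 6. After thinning each barcode to 20000 UMIs the medians were 11 and 4. The summed CPM of the 4 ISG lists was 1423, 5648 and 20968 in the lowest, median and highest interferon cell, against 847, 2690 and 11128 in the others. It exceeded the others' 95th percentile of 6124 CPM in 28 of the 62 interferon cells (45.2%, 32.5 to 58.3%), and 6 interferon cells were below the others' median. Conversely, 36 of the other barcodes were above the interferon cells' median. Among the other sets, the barcodes with differentiation highest had the highest median sum (3597 CPM), and the remaining 4 had medians from 2467 to 2711.

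**Figure D4:**
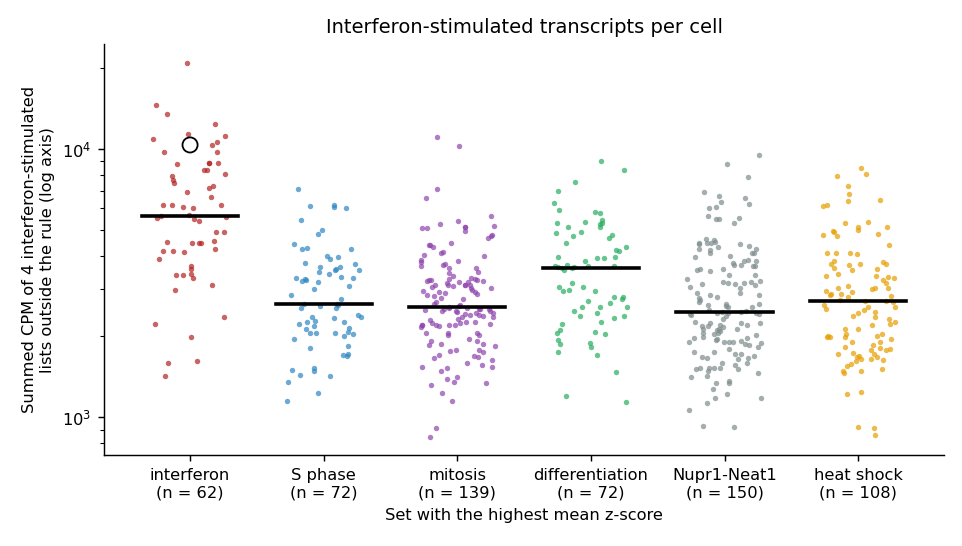
Each point is 1 deep barcode, with the summed CPM of the 4 ISG lists outside the rule on a log y axis and the set with the highest mean z-score on the x axis. Black bars are medians, at 5648 CPM for interferon cells and 3597 CPM for the differentiation set, and the ring marks the fibroblast-gene barcode at 10350 CPM. The interferon cells overlap with each of the other sets.

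The ISG lists varied together over the interferon cells. Spearman's rho between the summed antiviral and MHC class I levels was 0.805, between antiviral effectors and GTPases 0.556, and between GTPases and MHC class I 0.475 (n = 62 cells, which share 1 library). The interferon score and the sum of the ISG lists had a rho of 0.390 in interferon cells and 0.509 in the 541 others. The sum was also related to depth in interferon cells (rho −0.383 with UMIs per barcode), with higher relative levels in shallower cells, and the part of depth in the spread was not tested. Over all 603 deep barcodes, the 10 genes outside the rule most like the interferon score were Bst2 (rho 0.588), Oasl2 (0.571), Xaf1 (0.537), Rtp4 (0.530), Irf7 (0.519), Apol9a (0.492), Ifitm3 (0.490), Apol9b (0.473), Zbp1 (0.458) and B2m (0.457).

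Chemokines were high in few cells. Ccl5, an attractant of T cells and monocytes, was at 89.5 against 10.2 CPM, but its 252 UMIs came from 8 interferon cells, with 154 in 1 cell. Cxcl10, an interferon-induced attractant of T cells, had 2.13 from 155 UMIs in 18 cells, with 46 in the highest. Ccl2, an attractant of monocytes, had 1.51, which became 0.88 without the fibroblast-gene barcode. Cxcl1, an attractant of neutrophils, was lower in the pooled interferon cells, at 39.8 against 100 CPM (−1.15), but not in the median cell, at 20.9 against 20.1 CPM. It was detected in 41 interferon cells with up to 15 UMIs and in 329 others with up to 153. Of the 10 tested chemokine and cytokine genes, 3 were at least 2-fold higher and 1 lower, against 0.868% and 0.043% of all tested genes.

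In the 90% aliquot, cell cycle genes were not called in either direction, where 0.868% of all tested genes were higher and 0.043% lower. With shares this low, the absence of calls is not a result about cell cycle genes. None of 20 further S-phase genes was called, 1 lay above 0, and their sum was 729 against 924 CPM, within the range of 525 to 1488 over the other sets. None of 20 further G2 and M phase genes was called, and their sum was 908 against 1182 CPM (sets 577 to 2063). In the 10% aliquot, where 2.78% of all genes were at least 2-fold lower by short reads, 4 of 19 S-phase and 8 of 18 G2 and M phase genes were, with medians of −0.73 and −0.91. By long reads, with 6.75% of all genes lower, 10 of 19 and 12 of 19 were, with medians of −1.08 and −1.22. The rule itself sends barcodes high in S-phase or mitotic genes to other sets, so lower sums are partly built in. Of 17 differentiation genes tested, none was higher and 2 were at least 2-fold lower, both of the muscle contractile apparatus: Mylpf, a myosin light chain gene, at 5.68 against 28.4 CPM (−1.29), and Acta1, skeletal actin, at 3.91 against 18.5 CPM (−1.04). The same limit holds here, since barcodes high in differentiation genes belong to another set. Cxcl1 and Atf3 (a gene of the heat-shock set, −1.21) were also among the 5 genes at least 2-fold lower.

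Of 7 tested genes linked to quiescence, Heyl alone passed the 2-fold line and none was lower. Over all tested genes, 0.868% were higher and 0.043% lower. Heyl, a Notch target, was at 26.6 against 4.42 CPM (1.34) and was detected in 24 interferon cells. The Notch receptor gene Notch3 had 0.91 and Hey1, a further Notch target, 0.67. The summed quiescence list was 144 (130 to 159) against 74.8 CPM, and 607 CPM in the unclassified barcodes with 1000 to 20000 UMIs.

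Outside all lists, several genes were at least 2-fold higher, and absence from the lists does not show that a gene is not an ISG. Capn6, a calpain without protease activity, was at 58.6 CPM against 4.46 (2.25) and detected in 31 interferon cells and 69 others. Itm2a, a membrane protein gene expressed during myogenesis, was at 140 against 25.5 CPM (2.08) and detected in 50 interferon cells. The apolipoprotein L genes Apol9a (1.93) and Apol9b (1.72) are near-identical, so their reads may be exchanged, and each was detected in 51 interferon cells. Both were among the 10 genes most like the interferon score, and each held the response element core in 2 of 2 promoter windows. Msc, encoding the musculin repressor of myogenic factors, had 1.69 in 24 cells. The imprinted genes Mest and Meg3 were also among them. Mest was at 405 against 146 CPM (1.41), but at 329 CPM in the differentiation set, and it was detected in 77.4% of interferon cells and 75.6% of the others. Meg3 (1.60) was detected in 22.6% and 20.3%, and 95 of its 158 UMIs came from 4 interferon cells without a short-read Myod1 UMI. Some of these genes were higher still in the unclassified barcodes with 1000 to 20000 UMIs. Meg3 was at 1571 CPM there against 56.1 in interferon cells, Msc at 653 against 47.6 and Itm2a at 243 against 140. Capn6 (28.1), Apol9a (11.8), Apol9b (7.95) and Mest (140 CPM) were lower there than in interferon cells.

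Matrix genes in the same group depended on the fibroblast-gene barcode. Col1a1 had a log2 ratio of 2.70 with it and 0.55 without it, Igfbp7 2.04 and 0.50, Postn 1.65 and 0.62, and Ccn5 1.47 and 0.65. Bgn (2.36 and 1.37) and Sparc (1.62 and 1.25) stayed above the 2-fold line without it. Fibro-adipogenic markers as a list were 241 against 59.5 CPM (212 without that barcode). All 3 that could be tested were higher with and without it: Ly6a, which encodes the Sca-1 antigen (2.23), Col3a1 (1.39) and Gsn (1.04). Ly6a was detected in 30 interferon cells and 103 others. It alone reached 1759 CPM in its highest interferon cell, so the list sum of a cell may rest mostly on this gene. None of the 10 markers was at 0, while Pdgfra had 3 UMIs, all in the fibroblast-gene barcode. Over single interferon cells the list ran from 0 to 2190 CPM with a median of 133, against a median of 37.4 and a highest value of 1333 in the others. The cell at 2190 CPM was not the fibroblast-gene barcode, which stood at 1344 CPM. Its part in the results was not tested.

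Immune, endothelial and Schwann markers were near the level of the other barcodes. Immune markers summed to 11.4 (7.77 to 16.0) against 8.58 CPM, with 7 of 17 listed markers at 0 in interferon cells, among them Csf1r, Adgre1 and C1qa. Endothelial markers summed to 7.46 against 7.17 CPM, with 5 of 10 at 0, including Cdh5 and Kdr. Schwann markers summed to 77.8 against 76.3 CPM, nearly all of it Ncam1, with Mbp at 0. Mural markers summed to 664 against 442 CPM, of which Des alone gave 531 and 395. Acta2 was the mural gene called (1.25, but 0.74 without the fibroblast-gene barcode).

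The 15 interferon cells without a short-read Myod1 UMI are set beside the 46 with one, the fibroblast-gene barcode being left out. This split was made after values were seen and is a description of counts. All 6 of the 15 that were read with long reads had Myod1 UMIs there, though too few to tell whether Myod1 was on. They were shallower, with a median of 27224 against 46096 UMIs. Their summed rule genes stood at 945 against 398 CPM, with higher values for Ifi27l2a (402 against 61.5 CPM), Isg15 (333 against 229 CPM) and Iigp1 (147 against 44.2 CPM), and 62.1 against 64.1 CPM for Ifit1. Bst2 was at 784 against 378 CPM and Irf7 at 129 against 52.4 CPM. The median summed ISG level was 7690 against 5540 CPM. Des was level at 543 and 545 CPM.

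Several of the genes outside the lists were concentrated in these 15 cells. Mest was at 1141 against 280 CPM, Capn6 at 191 against 35.5 CPM, Itm2a at 315 against 111 CPM, and Msc, found in 6 of them, at 140 against 31.6 CPM. Heyl was at 78.2 against 17.8 CPM, and the quiescence list summed to 262 against 125 CPM. The second highest set was the Nupr1 set in 9 of the 15. Ccl5 went the other way, at 29.9 against 103 CPM. No label tells whether these cells came from injured or uninjured muscle.

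The 10 interferon cells deep in both aliquots had further counts, from the short reads of the 10% aliquot and from long Nanopore reads. With the z-score means and SDs of the 90% aliquot, all 10 were interferon cells again in the 10% aliquot. They were scored on counts close to those that had chosen them, so this repeat call was largely built in. There 11 of 78 deep barcodes without Ptprc UMIs were interferon cells (14.1%, 7.26 to 23.8%). The eleventh was deep in the 90% aliquot but had another set highest there. Over the 76 shared barcodes, 69 had the same highest set in both counts.

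Between the aliquots the short-read counts of the same interferon cells were close, whereas long reads gave more UMIs for several genes. Whether the short-read counts of the 2 aliquots are independent of each other was not tested. Isg15 had 114 UMIs over the 10 cells in the 90% aliquot, 97 in the 10% aliquot and 140 with long reads. Ifi27l2a had 117, 126 and 117, and Bst2 had 228, 231 and 250. The short-read counts of a cell differed by at most 1 UMI in 9 of 10 cells for Isg15, in 8 each for Iigp1, Ifi27l2a and Irf7, and in 6 for Oasl2. For the abundant Bst2 and B2m this held in 3 and 2 cells, and for Ifit1 in all 10, of which 6 were at 0 in both aliquots. Long reads gave more UMIs of Irf7 (46, 45 and 130), Oasl2 (29, 35 and 85), Iigp1 (35, 38 and 83), Des (182, 178 and 636) and Myod1 (13, 13 and 72), while the 10 cells' total was 380508, 430645 and 474178 UMIs.

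**Figure D5:**
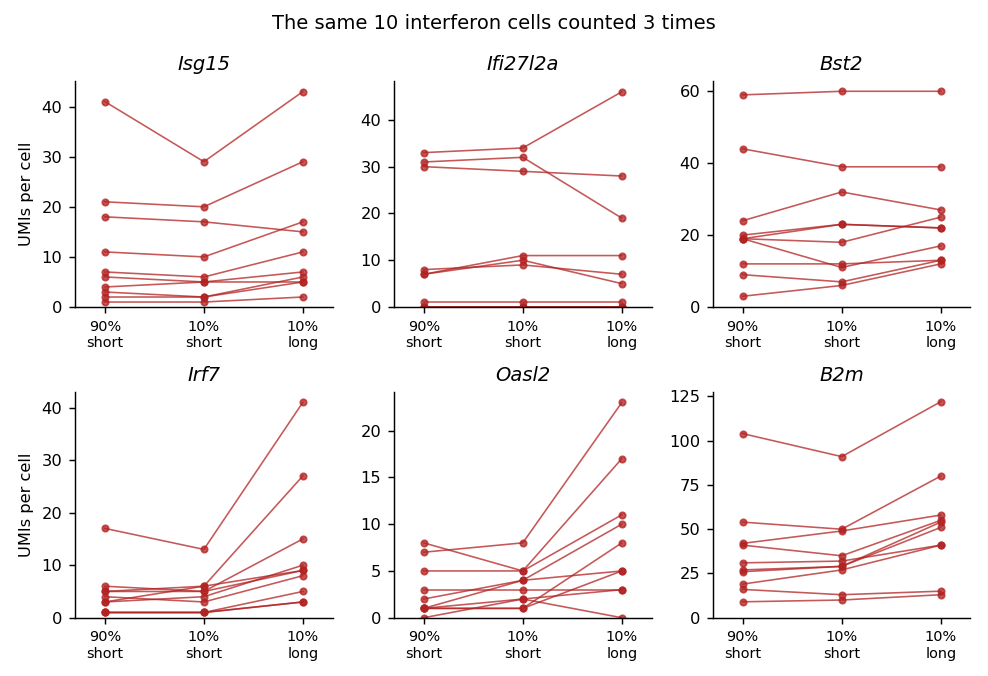
Each line is 1 of the 10 interferon cells deep in both aliquots, with UMIs per cell on the y axis for the short reads of the 90% aliquot, the short reads of the 10% aliquot and the long reads of the 10% aliquot. The aliquots' short-read counts stay close, at 114 and 97 UMIs in all for Isg15. Long reads give more for Irf7 and Oasl2.

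In the 10% aliquot's short reads, 15 of the 25 tested ISGs were at least 2-fold higher in its 11 interferon cells than in its 67 others, where 3.57% of all 6223 tested genes were, and none was lower, where 2.78% of all were. The median log2 ratio of the ISGs was 1.23. Without the fibroblast-gene barcode, which is 1 of the 11, 13 of 24 were higher and the median was 1.05. With long reads 25 of 39 tested ISGs were at least 2-fold higher (7.73% of all 6639 genes) and none lower (6.75%), with a median of 1.38, or 21 of 38 with a median of 1.17 without that barcode. By long reads Oasl2 (3.08), Irf7 (3.01), Zbp1 (2.93) and Irf9 (2.47) had larger ratios than in the short reads of the 90% aliquot, and Ifitm3 crossed the line at 1.03 (1.21 in the short reads of the 10% aliquot). These are ratios over few cells that were already in the 90% aliquot.

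Long reads also resolved isoforms of 120 interferon-list genes, with 305 isoforms of at least 10 UMIs, 84 of them with a reference name. Isg15-201 took 97.3% of Isg15 UMIs in interferon cells (143 of 147) and 98.4% in the others, and Ifitm3-201 took 99.5% and 99.6%. B2m-201 took 86.5% (83.4 to 89.2%) and 85.8%, and Bst2-201 91.7% (88.2 to 94.4%) and 94.9% (93.2 to 96.4%). The same isoform led in both groups for these abundant ISGs, and differences in share were not tested.

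Less abundant regulators had more mixed isoforms. Irf7-201 took 26.0% (18.7 to 34.3%) of 131 UMIs in interferon cells and 32.9% (22.7 to 44.4%) of 79 in the others, with overlapping intervals. Zbp1-201, the longer form, took 47.0% (34.6 to 59.7%) of 66 UMIs in interferon cells and 19.2% (6.55 to 39.4%) of 26 in the others, again overlapping. Overlap does not show that shares were equal, and the differences were not tested.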

How the data were processed

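Single-cell RNA-seq of 1 Chromium capture was analysed. The study's methods name scPipe for the short-read gene counts and FLAMES for long-read isoforms, with GRCm38 as genome, and the submitters' processing notes list Cell Ranger 1.3 and minimap2 2.17. The authors deposited UMI counts per gene and barcode for the short reads of both aliquots (39044129 UMIs in the 90% aliquot and 6772259 in the 10% aliquot) and UMI counts per isoform for the long reads (8297203 UMIs), with 3001 barcodes in the 90% and 1991 in the 10% aliquot. The deposited isoform annotation was not used. Gene symbols matched 26939 of the 26997 gene IDs of the 90% aliquot, and coordinates and transcript names came from Gencode M21 on GRCm38.

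All else was computed here with Python 3.11.15, numpy 2.4.6, scipy 1.17.1 and pandas 2.3.3. Pooled CPM were compared as log2 ratios after adding 10 CPM, for genes with at least 50 UMIs, and a gene was called at 2-fold. With 1 capture no test was run. Intervals are exact Poisson or exact binomial at 95%, a count of 0 allows up to 3 UMIs, and both cover counting error only. Scrublet in scanpy 1.11.5 called 3 of 2420 barcodes as doublets, too few to have worked, so doublets were not removed. The script was tested on simulated data.

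Genes of the rule and of the fixed interferon lists may be named. Outside the lists, the 20 largest and 10 smallest ratios detected in at least 10% of cells of either group were eligible, as were the 10 genes most like the score and isoforms with at least 10 UMIs. Other-cell markers and lower genes were named too, and some items are not reported here. Members and lists were chosen with earlier results of these data known. The plan took the 10% aliquot for other cells, which the barcodes showed it was not. The split by Myod1 and the alternatives without the fibroblast-gene barcode or the shared barcodes were chosen after seeing the data.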

Additional observations from a re-analysis of the deposited data

How the results depend on the processing

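Alternatives changed the size of the class and the counts of genes, and no median changed sign. The interferon cells numbered 34 (5.64%) when the set had to lead by 0.5, and between 50 and 83 under the other 11 alternatives, where the share ran from 8.29 to 11.8%. The median log2 ratio of ISGs outside the rule, 0.95, became 1.20 with barcodes of at least 10000 UMIs, 1.15 with the 0.5 lead, 1.08 with log2(CPM + 10) in the z-scores, 0.72 without Ifit1 in the set, 1.52 with 1 CPM added, 0.39 with 50 CPM added and 1.13 after thinning. The 101 genes at least 2-fold higher became 190 at 10000 UMIs, 53 at 30000 UMIs, 172 with the 0.5 lead, 392 with 1 CPM added, 14 with 50 CPM added and 58 without the barcodes deep in both aliquots. The 5 lower genes became 15, 19, 9 (log2(CPM + 10)), 2 (without Ifit1), 3 (without Iigp1), 2 (without Ifi27l2a), 152 (1 CPM), 0 (50 CPM) and 10 (thinned), where 15 is at 10000 UMIs and 19 with the 0.5 lead. In the 10% aliquot the median of 1.23 became 0.74 with 50 CPM added. Depth limits sparse genes, and with 1 capture counting intervals leave out variation between animals. No paired analysis was possible because each aliquot is 1 sample.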

Other observations

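Few genes of cell death and of stress passed the 2-fold line in the interferon cells. Over all tested genes, 0.868% were higher and 0.043% lower, so few calls in a short list are near that share. Of 12 tested p53 and apoptosis genes, 1 was at least 2-fold higher and none lower, 10 lay above 0, and the median log2 ratio was 0.39. That gene was Trp53inp1, a p53 target, at 27.7 against 8.77 CPM (log2 ratio 1.01). Fas, the death receptor gene, and Mlkl, the effector of necroptosis, each had a log2 ratio of 0.76, and Casp4, an inflammatory caspase gene, was at 5.68 against 0.19 CPM from 16 UMIs. Bax was level at 402 and 392 CPM. None of 14 further stress genes was called, with a median of 0.05, though their sum was 4150 (4076 to 4226) against 3075 CPM, within the range of 1902 to 4333 over the other sets, and none of 15 further immediate-early and heat-shock genes, with a median of −0.14.

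Among genes outside all lists, low ratios belonged to Krt8, a simple epithelial keratin (−0.91), Kdm6b, a histone demethylase gene (−0.82), and Sgk1, a stress-responsive kinase gene (−0.81). Gdf15, a stress cytokine gene, had −0.77. None of these 4 reached 2-fold.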
